A study of Homo sapiens with 4 samples.

Results

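The proteasome genes were examined in PC3 cells, a human prostate cancer line, after COUP-TFII, a nuclear receptor with no settled natural ligand, was targeted by siRNA. Members were taken as all probe sets that the platform table gives to exactly 1 gene with a symbol starting PSMA, PSMB, PSMC, PSMD, PSME, PSMF or PSMG and a digit. The rule used symbols only and no measured value, but it was chosen with earlier results of these data known. It gave 97 of 41091 single-gene probe sets, for 50 of 19775 genes. Of these 50 genes, 42 encode subunits, activators, an inhibitor or assembly factors of the proteasome, and 8 share only the symbol stem. The 42 genes had 81 probe sets, and 22 of them had more than 1.

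The study held 4 single-colour expression arrays, 2 from PC3 cells given control siRNA and 2 from PC3 cells given COUP-TFII siRNA. All 4 cultures received siRNA duplexes at 40 nM and were harvested for total RNA after 48 h, so no untransfected cells are among them. The labels do not say whether the 2 arrays of a group came from separate transfections, so the p-values cover the spread from array to array, which may be only technical. The targeted transcript was not analysed here, so the siRNA labels were not checked against its level.

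The proteasome degrades proteins that carry ubiquitin chains. Its core particle is a stack of alpha rings, which gate the entrance, and beta rings, which hold the proteolytic sites. A regulatory particle caps the core: its base unfolds substrates with a ring of ATPases, and its lid removes ubiquitin. Interferon-gamma induces alternative catalytic subunits that replace the constitutive ones in newly built particles, the immunoproteasome, which favours peptides for presentation on MHC class I. The transcription factor NRF1 (gene NFE2L1) raises most subunit genes together when proteasome activity is short.

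Most proteasome transcripts differed little between the groups, and 4 stood out by passing under every omission of 1 array. PSMB9, an immunoproteasome subunit, PSMB6, its constitutive counterpart, and PSMC6, an ATPase of the base, fell after COUP-TFII siRNA, while PSMD2, a scaffold of the base, rose. By limma with Benjamini-Hochberg adjustment over all genes, 11 of the 42 genes fell, 1 rose and 30 did not pass an adjusted p of 0.05, so 28.6% were called. Over all 19775 genes 23% were called, 10.3% lower and 12.7% higher. Proteasome transcripts are bright, and bright genes are called more often on these arrays. Of the 2606 genes with a mean intensity of 1000 or more, 48.7% were called, 25.8% lower and 22.8% higher. The 35 proteasome genes in that range had 10 lower calls, or 28.6%, close to the background, and 1 higher call, or 2.86%.

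The median log2 fold change of the 42 genes was -0.11, against 0.01 for all genes and -0.01 for all genes with a mean of 1000 or more. Fold changes are differences of log2(intensity + 16) between groups of 2 arrays, which understates the change of dim genes. Their range over the 42 genes was -0.93 to 0.40, and 32 of the 42 lay within 0.2 of 0. Only PSMB9 was both called and changed by 1.5-fold or more. In 27 of the 42 genes, or 64.3%, both COUP-TFII siRNA arrays lay below both control arrays, against a background of 26.7% of all genes. Both lay above in 5 of the 42 genes, or 11.9%, against 30.8% of all genes, and in 10 genes the groups overlapped. These backgrounds are over genes of any intensity, and none was counted for genes with a mean of 1000 or more. How far the brightness of the family goes with these shares was not tested. Taken array by array against the control mean, the median of the 42 genes was -0.05 on COUP-TFII siRNA replicate 1 and -0.13 on replicate 2. For all genes with a mean of 1000 or more, these medians were 0.02 and -0.04, so replicate 2 was the lower array there too. Centring moves every fold change by the same amount, so it cannot change the family median relative to all genes. Both centrings tried used 11 housekeeping genes. Centring each array on their middle intensity, held by HPRT1 (itself at -0.77) on the control arrays and by SDHA on the others, added 0.36 to every gene alike and so turned the family median to 0.25, with all genes at 0.37; that shift is set by a change of gene, and signs and calls under it say nothing about single members. Centring each array on the median deviation of the housekeeping genes instead, called their median change here, was chosen after seeing the data. It moved every gene up by 0.05 and put the family at -0.052 against 0.069 for all genes. That shift equals the fall of 1 gene, GUSB (-0.05), whereas the median of the 11 log2 fold changes was -0.02. Calls under it therefore rest on that gene. PSMB6, PSMB9, PSMC6, PSMC3 and PSME4 were then the 5 called lower, while PSMA7, PSMB1, PSMC2 and the 3 called lid genes lost their calls. With 1 prior variance for all genes in place of an intensity trend, only PSMB9 of the 42 passed.

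**Figure D1:**
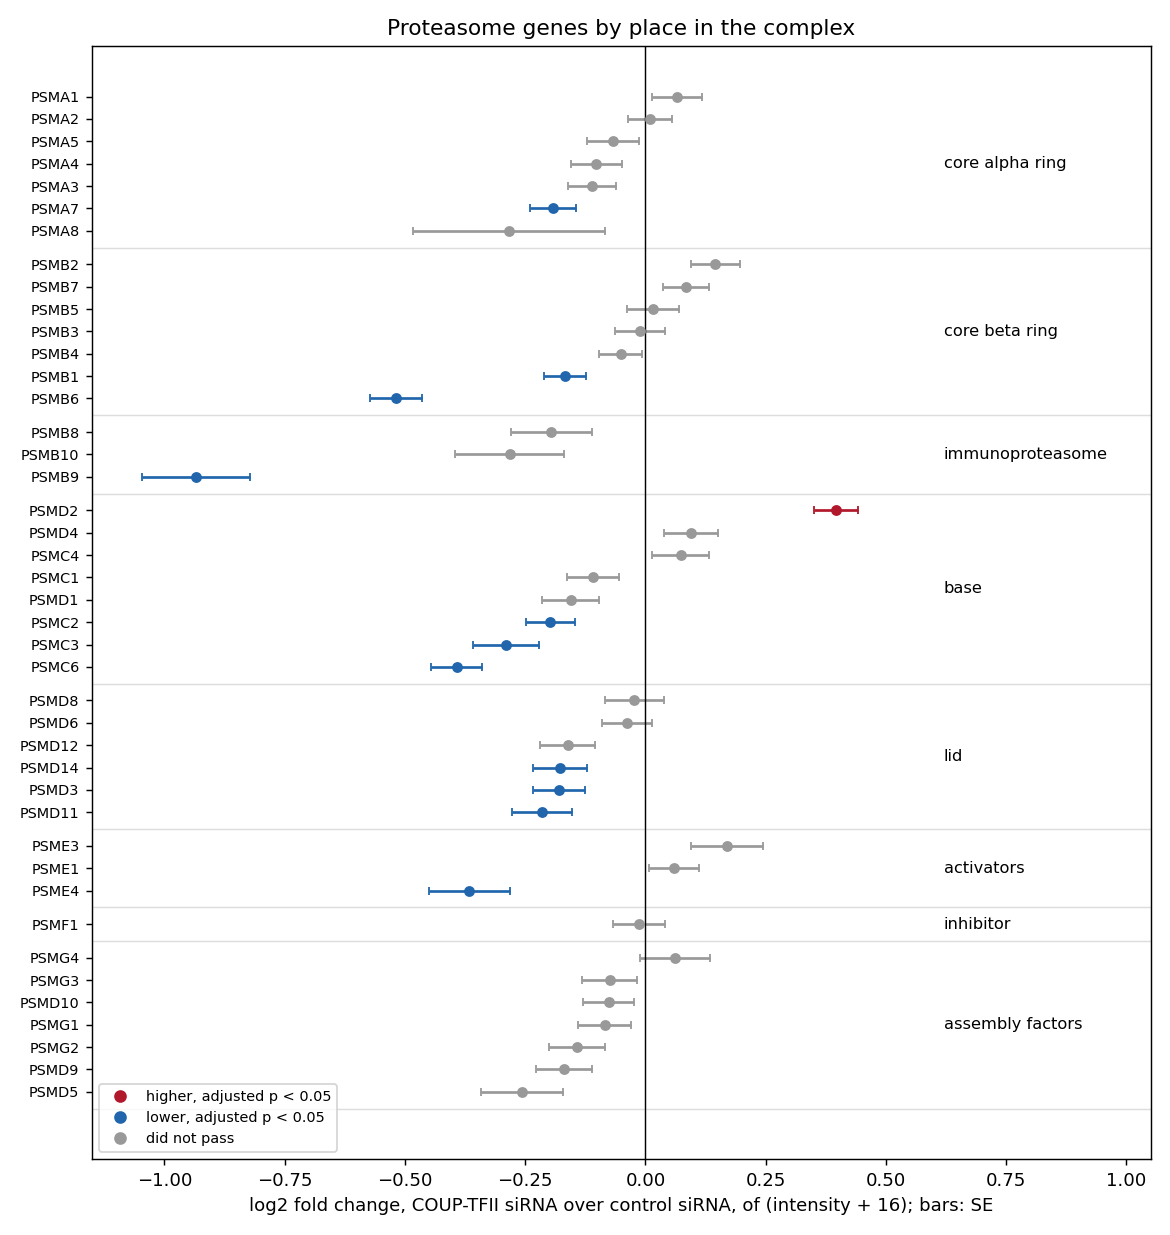
Log2 fold change of log2(intensity + 16), COUP-TFII siRNA over control siRNA, for the 42 proteasome genes by place in the complex, with bars for the standard error from limma and 2 arrays in each group. PSMB9 at -0.93 lies farthest to the left, PSMD2 at 0.40 is the one gene called higher, and most others lie within 0.2 of 0.

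The arrays were alike in overall level, and their medians over all probe sets, 31.7 to 32.9, differed by 3.66%. COUP-TFII siRNA replicate 2 had the lowest mean intensity, 311.1, against 317.8 to 322.5 on the other 3 arrays. For the ACTB control probe sets, the 3' to 5' ratio, a measure of RNA integrity, was 1.52 and 1.83 on the control arrays and 1.42 and 1.46 on the COUP-TFII siRNA arrays; for GAPDH it was 0.957 to 0.994 on all 4 arrays. The 8 genes listed as markers of this epithelial line, among them keratins, cadherins and vimentin, had summed intensities of 36956 to 37807, although 3 of them rose and 4 fell, CDH2 by the most at 0.87 on the log2 scale and KRT19 alone not passing. The 3 immune markers summed to 48.8 to 61.7. Of the 4 prostate luminal markers TMPRSS2 alone passed, rising from 132.1 and 156.5 on the control arrays to 391.2 and 392.0 on the COUP-TFII siRNA arrays. KLK2, KLK3 and FOLH1, luminal genes of normal prostate, were below the array medians on all 4 arrays, at 25.9 at most. Of the 5 fibroblast markers COL1A1 alone passed, rising from 598.6 and 540.3 to 961.6 and 949.6, while the list's median log2 fold change was -0.03, with COL1A2 at -0.17, DCN at -0.35 and LUM at -0.03. None of the 4 endothelial markers passed, and their sums were 187.8 and 188.0 against 219.7 and 281.7. The part of these differences in the proteasome values was not tested. In such bulk samples, fewer cells of a kind and less RNA per cell cannot be told apart.

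Among the 6 genes of proteolytic sites in the constitutive and immune core, both genes of the beta 1 position, PSMB6 and PSMB9, fell. PSMB6, the constitutive caspase-like subunit (beta 1), had intensities of 3299.7 and 3423 on the control arrays and 2256 and 2429 on the COUP-TFII siRNA arrays. The groups were well apart, with means of 3362 ± 87.4 and 2342 ± 122 (SD, n = 2 each). This is a log2 fold change of -0.52 ± 0.05 (SE), with a limma adjusted p of 0.000196. It was measured by 1 probe set.

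The other constitutive catalytic subunits did not pass the test. PSMB7, the trypsin-like subunit (beta 2), had 2883 and 2973 on the control arrays and 3106 on each COUP-TFII siRNA array. The log2 fold change of 0.08 (95% interval -0.02 to 0.19) did not pass (limma adjusted p = 0.266). PSMB5, the chymotrypsin-like subunit (beta 5) and main target of bortezomib, had 3191 and 3289 on the control arrays and 3399 and 3156 on the COUP-TFII siRNA arrays. These groups overlapped, and the log2 fold change was 0.02 (95% interval -0.11 to 0.14; limma adjusted p = 0.887). Within each array, the log2 ratio of PSMB6 to PSMB7 changed by -0.60 and that of PSMB6 to PSMB5 by -0.53. With 2 arrays in a group, an exact two-sided permutation test cannot go below p = 0.333, which is the value both ratios gave.

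The 3 immune catalytic genes measured, PSMB8, PSMB9 and PSMB10, all had negative fold changes, with a median of -0.28, and only PSMB9 passed. PSMB9, which takes the place of PSMB6 and cuts after hydrophobic residues instead, had 249.6 and 267.2 on the control arrays and 127.3 and 127.8 on the COUP-TFII siRNA arrays. Its log2 fold change, -0.93 ± 0.11 (SE), was the lowest of the 42 genes, with a limma adjusted p of 0.000413. PSMB10, which takes the place of PSMB7, had 233.7 and 224.1 on the control arrays and 173.9 and 197.5 on the COUP-TFII siRNA arrays. Every COUP-TFII siRNA array was below both controls, but the log2 fold change of -0.28 ± 0.11 did not pass (limma adjusted p = 0.118). Leaving out genes dimmer than the median of all genes put its adjusted p at 0.0298. PSMB8, which takes the place of PSMB5, had 523.5 and 510.9 on the control arrays and 424.9 and 475.6 on the COUP-TFII siRNA arrays. The groups did not overlap here either, and the log2 fold change of -0.20 ± 0.08 had a limma adjusted p of 0.141.

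Each immune subunit was also set against the constitutive subunit it replaces, within the same array. The log2 ratio of PSMB9 to PSMB6 changed by -0.42, that of PSMB10 to PSMB7 by -0.37 and that of PSMB8 to PSMB5 by -0.21. The ratios were lower on both COUP-TFII siRNA arrays than on both control arrays in all 3 pairs, and each had the smallest exact permutation p possible, 0.333. For PSMB9 and PSMB6, both genes of the pair fell, and the ratio shows only that PSMB9 fell more.

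**Figure D2:**
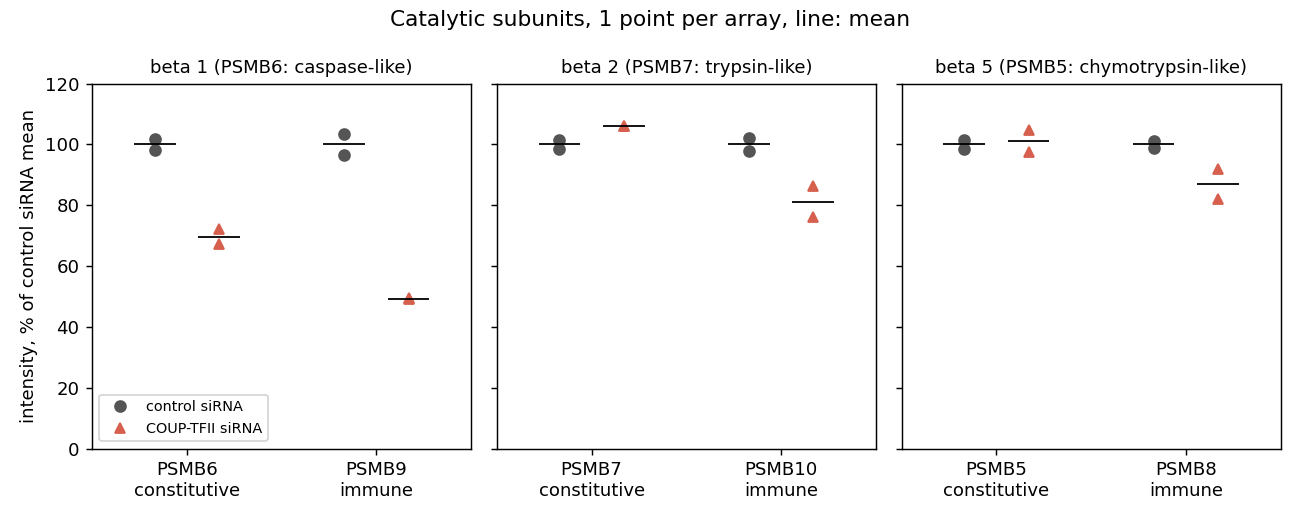
Intensity of the 6 catalytic subunits on each array as a percentage of the gene's control siRNA mean, with constitutive and immune genes side by side for each catalytic position, named by the activity of the constitutive subunit. Lines are means of 2 arrays, and both COUP-TFII siRNA points lie below the controls for PSMB6, PSMB9, PSMB10 and PSMB8 but not for PSMB7 or PSMB5.

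The start regions of the 3 immune catalytic genes are shown because this class held the lowest fold change of the family in 1 member and calls in none of the others. RefSeq sequences on GRCh38.p14 were at hand for 36 of the 42 genes, as 43 start sites. Each sequence below is the 250 bases before a start, 5' to 3' on the gene's strand. PSMB9 lies at chr6:32853942-32854191 on the plus strand, PSMB10 at chr16:67936851-67937100 on the minus strand and the outer start of PSMB8 at chr6:32844680-32844929 on the minus strand. Capitals mark matches to 5 motifs searched on both strands: GAAA, any 2 bases and GAAA again (core of interferon response elements), TTCNNNGAA (sites of STAT factors), TGACNNNGC (core of antioxidant response elements, the kind NRF1 binds), CCAAT (bound by NF-Y) and AGGTCA (a nuclear receptor half-site, the kind COUP-TFII binds).
PSMB9: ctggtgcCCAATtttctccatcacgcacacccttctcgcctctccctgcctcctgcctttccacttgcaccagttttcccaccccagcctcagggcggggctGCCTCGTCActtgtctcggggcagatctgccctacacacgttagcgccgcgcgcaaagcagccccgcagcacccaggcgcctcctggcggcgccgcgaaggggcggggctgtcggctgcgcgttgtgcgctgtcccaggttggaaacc
PSMB10: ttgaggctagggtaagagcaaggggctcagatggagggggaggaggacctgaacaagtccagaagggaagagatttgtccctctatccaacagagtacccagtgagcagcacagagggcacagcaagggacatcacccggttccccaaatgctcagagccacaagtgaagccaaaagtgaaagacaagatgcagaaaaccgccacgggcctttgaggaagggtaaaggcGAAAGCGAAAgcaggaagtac
PSMB8: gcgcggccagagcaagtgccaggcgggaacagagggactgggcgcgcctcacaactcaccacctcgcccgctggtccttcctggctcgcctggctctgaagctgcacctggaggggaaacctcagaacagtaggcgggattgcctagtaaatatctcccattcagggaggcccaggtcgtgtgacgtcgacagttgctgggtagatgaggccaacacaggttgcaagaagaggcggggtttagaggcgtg
In PSMB9 the capitals are a CCAAT match 243 to 239 bases before the start and a reverse-strand TGACNNNGC match 148 to 140 bases before it. PSMB10 has a match to the interferon response core 21 to 12 bases before its start. The outer PSMB8 start has none of the 5, and the inner one has a TTCNNNGAA match 65 to 57 bases before it. No 2 matches overlapped in the sequences shown. Over the whole family, TGACNNNGC was found in 25.6% of the 43 proteasome start regions and 10.9% of 35116 regions of this length genome-wide. The interferon response core was in 9.3% against 3.02%, TTCNNNGAA in 16.3% against 6.57%, CCAAT in 37.2% against 32.01%, and AGGTCA in 6.98% against 12.08%. Of the 11 genes that fell, 8 had a start region, and 5 of these held CCAAT, 3 held TGACNNNGC, 1 held TTCNNNGAA and none held the interferon response core or AGGTCA. A match is a run of letters and not a measured site.

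PSMB9 and PSMB8 lie in the MHC class II region of chromosome 6 beside TAP1 and TAP2, which encode the peptide transporter that feeds MHC class I. The starts of PSMB9 and TAP1 point away from each other and lie 488 bases apart. TAP1 and TAP2 are named here for this position, and not by the rule for the other genes. TAP1 had 744.5 and 750.2 on the control arrays and 518.1 and 537.8 on the COUP-TFII siRNA arrays, a log2 fold change of -0.49 (limma adjusted p = 0.000984). TAP2 had 600.5 and 580.2 against 440.3 and 485.0, a log2 fold change of -0.34 (limma adjusted p = 0.0138). Both neighbours fell, with no overlap between the groups.

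The antigen processing list, which holds genes that trim, carry or present peptides and the transcription regulators IRF1 and NLRC5, had 11 of 13 members measured. In it 6 fell, 2 rose and 3 did not pass, against 10.3% lower and 12.7% higher of all genes and 25.8% and 22.8% of the genes with a mean of 1000 or more. The 2 regulators are named here outside the naming rule. IRF1 fell by 0.40 on the log2 scale (limma adjusted p = 0.0204), but neither of its 2 probe sets passed in the fit over all probe sets. NLRC5 did not pass. The median of the 11 was -0.22 on the log2 scale. TAPBP, the chaperone tapasin that loads MHC class I, had 1252 and 1216 on the control arrays and 458.6 and 457.3 on the COUP-TFII siRNA arrays. Its log2 fold change of -1.40 (limma adjusted p = 2.54e-06) was larger than that of any proteasome gene. The peptide-trimming enzymes of the endoplasmic reticulum moved apart: ERAP2 fell by 0.63 and ERAP1 rose by 0.76 on the log2 scale (limma adjusted p = 0.00273 and 0.000712). HLA-E, a non-classical class I gene, rose by 0.57 (limma adjusted p = 0.000345).

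The rest of the core differed little. Of the 7 alpha genes measured, 1 fell and none rose, with a median log2 fold change of -0.10; of the 7 constitutive beta genes, 2 fell and none rose, with a median of -0.01. PSMA7, an alpha ring subunit, had 2764 and 2791 on the control arrays and 2409 and 2451 on the COUP-TFII siRNA arrays. Its log2 fold change was -0.19 ± 0.05 (limma adjusted p = 0.0192), but it passed in none of the 4 fits with 1 array left out (adjusted p = 0.0629 to 0.178). PSMB1, a non-catalytic beta subunit, had 5776 and 5856 against 5241 and 5113, a log2 fold change of -0.17 ± 0.04 (limma adjusted p = 0.0218). It too passed in none of those fits (adjusted p = 0.0627 to 0.223), nor with quantile normalisation (0.0767). In both genes the groups did not overlap, and the fold change stayed negative in each of those fits.

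PSMA8, the testis form of an alpha subunit, was dim, close to the array medians of 31.7 to 32.9 over all probe sets. It had 37.0 and 35.6 on the control arrays and 26.0 and 27.9 on the COUP-TFII siRNA arrays, and did not pass (limma adjusted p = 0.387). PSMA6 was covered only by probe sets that the platform table shares with PRORP, and these gave log2 fold changes of 0.00 and -0.01. PSMA2 had its brightest own probe set at 0.01 and a dimmer one, with 392.0 and 411.8 on the control arrays and 462.0 and 455.0 on the COUP-TFII siRNA arrays, at 0.18 (limma adjusted p = 0.174 over all probe sets). A further 2 probe sets shared with C7orf25 gave 0.29 and 0.32, the latter with a limma adjusted p of 0.0286 over all probe sets. Which of the 2 genes the shared signal belongs to was not tested.

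The base of the regulatory particle held changes in both directions. Of its 8 genes measured, 3 fell, 1 rose and 4 did not pass. Their median was -0.13 on the log2 scale. PSMC6, an ATPase of the unfolding ring, had 4451 and 4095 on the control arrays and 3288 and 3209 on the COUP-TFII siRNA arrays. Its log2 fold change was -0.39 ± 0.05 (limma adjusted p = 0.000829), and the lowest control array stood well above the highest COUP-TFII siRNA array. PSMD2, the scaffold also called RPN1 that docks ubiquitin-bearing shuttle proteins, had 3968 and 4126 on the control arrays and 5389.8 and 5273 on the COUP-TFII siRNA arrays. It rose by 0.40 ± 0.05 on the log2 scale (limma adjusted p = 0.000323), the opposite direction to PSMC6 on the same arrays.

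A further pair of ATPases fell by less. PSMC3 had 1341 and 1417 on the control arrays and 1186 and 1066 on the COUP-TFII siRNA arrays, a log2 fold change of -0.29 ± 0.07 (limma adjusted p = 0.0153). PSMC2 had 4489.9 and 4352 against 3998 and 3713, a log2 fold change of -0.20 ± 0.05 (limma adjusted p = 0.0237). For both genes the fit without COUP-TFII siRNA replicate 1 alone kept the call; with COUP-TFII siRNA replicate 2 left out the limma adjusted p was 0.110 for PSMC3 and 0.131 for PSMC2, with control replicate 1 left out 0.0994 and 0.229, and with control replicate 2 left out 0.188 and 0.160. The mean of the 3 PSMC2 probe sets was not called either (-0.12, limma adjusted p = 0.328), but the others were much dimmer, at 137.1 to 285.4. PSMD1, the larger scaffold, missed the threshold at -0.16 on its brighter probe set, and its other probe set gave -0.27 (limma adjusted p = 0.0275 over all probe sets).

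In the lid all 6 genes measured had negative fold changes, from -0.22 to -0.02 with a median of -0.17, and 3 passed. PSMD11, a scaffold subunit, had 1443 and 1457 on the control arrays and 1304 and 1191 on the COUP-TFII siRNA arrays (log2 fold change -0.22 ± 0.06, limma adjusted p = 0.0374). PSMD3, another scaffold, had 1605 and 1602 against 1396 and 1434 (log2 fold change -0.18 ± 0.05, limma adjusted p = 0.0426). PSMD14, the deubiquitinase that cuts ubiquitin chains from substrates, had 3189 and 3230.1 against 2964 and 2714 (log2 fold change -0.18 ± 0.06, limma adjusted p = 0.0486). None of the 3 groups overlapped, yet PSMD3 passed in no fit with 1 array left out (adjusted p = 0.0846 to 0.218). PSMD11 and PSMD14 passed only without COUP-TFII siRNA replicate 1, with limma adjusted p-values of 0.154 and 0.185 when COUP-TFII siRNA replicate 2 was left out, 0.195 and 0.230 for control replicate 1, and 0.233 and 0.291 for control replicate 2. PSMD14 also missed the threshold with a pseudocount of 1 (0.0562) and with quantile normalisation (0.0545). Averaging its 2 probe sets moved PSMD11 to 0.03.

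Probe sets of a gene did not always move alike. PSMD12, a lid scaffold, did not pass on its brightest probe set, with 2456 and 2468 on the control arrays and 2296 and 2107 on the COUP-TFII siRNA arrays (log2 fold change -0.16). Its other probe set had 1678 and 1759 against 1323 and 1205, a log2 fold change of -0.44 (limma adjusted p = 0.00488 over all probe sets). Counted by probe set, 9 of the 81 were called lower and 1 higher, against 5.67% lower and 6.51% higher of 54613. That background is over probe sets of any intensity and was not counted for bright ones alone. PSMC2, PSMD3, PSMD11 and PSMD14, called in the fit over genes, had no probe set called in the fit over all probe sets. No gene among the 42 had probe sets called in opposite directions.

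**Figure D3:**
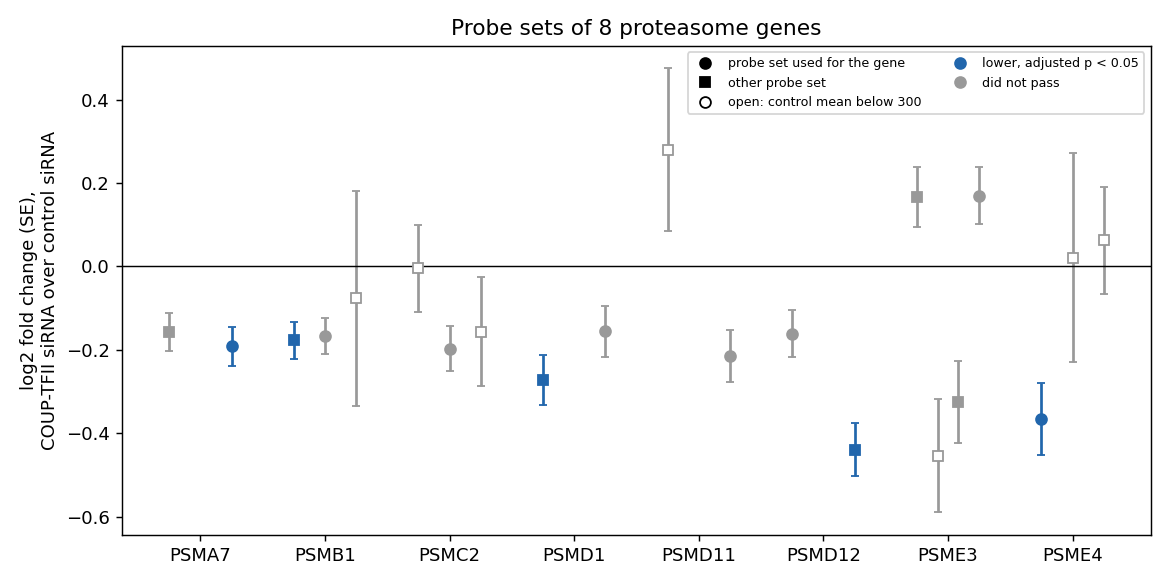
Log2 fold change with standard error for every probe set of 8 proteasome genes, from the limma fit over all probe sets; circles mark the probe set used for the gene, and open symbols a control mean below 300. PSMD12 has a called probe set at -0.44 and one at -0.16, and the 4 probe sets of PSME3 split into 2 above and 2 below 0.

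The activators open the core gate in place of the regulatory particle, and they did not move together. PSME4, which encodes PA200, a nuclear activator, fell from 1275 and 1073 on the control arrays to 886.0 and 921.9 on the COUP-TFII siRNA arrays. Its log2 fold change was -0.37 ± 0.08 (limma adjusted p = 0.0129), and the fit kept the call only without control replicate 2. With control replicate 1 left out the limma adjusted p was 0.138, with COUP-TFII siRNA replicate 1 left out 0.164, and with COUP-TFII siRNA replicate 2 left out 0.117. Its 2 dimmer probe sets gave 0.02 and 0.06, and the mean of all 3 gave -0.09 (limma adjusted p = 0.722).

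PSME1, the alpha subunit of the interferon-inducible 11S activator, had 3611 and 3379.8 on the control arrays and 3693 and 3589 on the COUP-TFII siRNA arrays, with overlap and a log2 fold change of 0.06 (limma adjusted p = 0.493). Its partner PSME2 was measured only by a probe set shared with the microRNA gene MIR7703. That probe set had 3507 and 3511 on the control arrays and 3134 and 3039 on the COUP-TFII siRNA arrays, a log2 fold change of -0.18 (limma adjusted p = 0.0439 over all probe sets). PSME3, which encodes the nuclear activator PA28-gamma, had 500.5 and 496.7 against 544.9 and 581.0 on its main probe set, and did not pass (log2 fold change 0.17, limma adjusted p = 0.155). Another of its probe sets also gave 0.17, and the remaining 2 gave -0.33 and -0.45, none of them past the threshold. The mean of the 4 was -0.11, so no direction can be given for PSME3. PSMF1, the inhibitor PI31, had 1943 and 1849 against 1900.3 and 1857, with a log2 fold change of -0.01 (limma adjusted p = 0.910).

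None of the 7 assembly factors passed, and 6 of them had negative fold changes, with a median of -0.08. The largest was that of PSMD5, a chaperone of base assembly, with 435.3 and 473.9 on the control arrays and 369.3 and 385.9 on the COUP-TFII siRNA arrays (log2 fold change -0.26 ± 0.08, limma adjusted p = 0.0596). PSMD9, another base chaperone, had 1357 and 1347 against 1230.0 and 1172 (log2 fold change -0.17 ± 0.06, limma adjusted p = 0.068). For both genes each COUP-TFII siRNA array was below each control array. PSMD5 passed when genes dimmer than the median of all genes were left out (limma adjusted p = 0.0181), and PSMD9 with quantile normalisation (0.0265).

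By part of the complex, the constitutive core had 3 of 14 genes lower and none higher, with a median log2 fold change of -0.06. The base and lid had 6 of 14 lower and 1 higher, with a median of -0.16. Array by array, the core median was -0.02 and -0.10 on the 2 COUP-TFII siRNA arrays and that of base and lid -0.09 and -0.19, relative to the control mean. The gap between core and regulatory particle was close in size to the gap between the 2 COUP-TFII siRNA arrays, and no test of it was made.

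**Figure D4:**
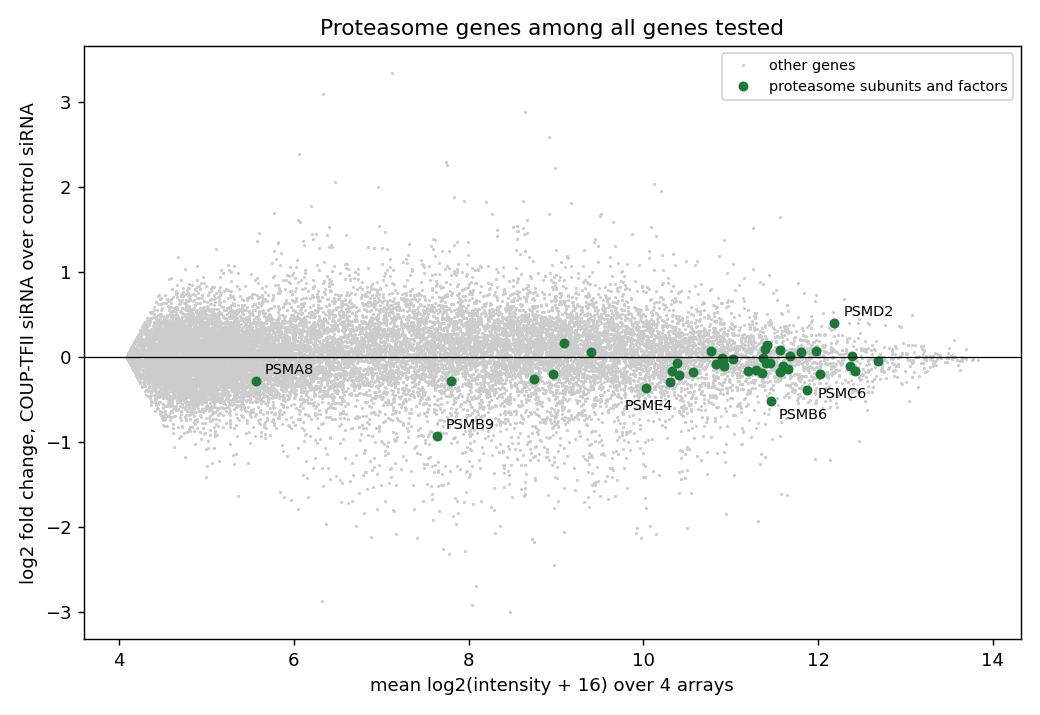
Log2 fold change (COUP-TFII siRNA over control siRNA) against mean log2(intensity + 16) over the 4 arrays, for all 19775 genes in grey and the 42 proteasome genes in green. Most proteasome genes sit among the bright genes close to 0, with PSMB9 dimmer and at -0.93.

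Genes that work beside the proteasome, in 4 lists of associated proteins, NRF1 processing, ubiquitin supply and shuttles, had 26 of 31 members measured. Of these, 6 rose, 3 fell and 17 did not pass, so 34.6% were called, between the 23% of all genes and the 48.7% of genes with a mean of 1000 or more. Their median was -0.02 on the log2 scale. Among 13 associated proteins, PITHD1, which is related to a proteasome-bound thioredoxin-like protein, rose from 764.7 and 730.3 to 1403 and 1274, by 0.83 on the log2 scale (limma adjusted p = 5.15e-05). UCHL5, a deubiquitinase docked on the base, fell from 615.3 and 584.9 to 358.6 and 329.3, by 0.78 on the log2 scale (limma adjusted p = 0.000206). ADRM1, the ubiquitin receptor that docks UCHL5, fell by 0.22 (limma adjusted p = 0.0326), but its 1 probe set did not pass in the fit over all probe sets. ADRM1 stands outside the naming rule and was chosen after its values were seen. ZFAND5 and ZFAND2A, zinc finger proteins that bind the proteasome, each rose by 0.29.

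Of the 3 genes measured in the NRF1 list, NGLY1, the deglycosylase that NRF1 needs for activity, rose by 0.25 (limma adjusted p = 0.0218), and the gene of NRF1 itself, NFE2L1, did not pass (log2 fold change 0.13, limma adjusted p = 0.234). Both ubiquitin-activating enzymes rose. UBA1 went from 2329 and 2228 to 3242 and 3249.8, by 0.51, and UBA6 from 1565 and 1458 to 2183 and 2187, by 0.53 on the log2 scale (limma adjusted p = 0.000123 and 0.000212). In the shuttle list, 1 of 7 genes passed: UBQLN1, which carries ubiquitin-bearing proteins to the proteasome, fell by 0.18 (limma adjusted p = 0.048). None of the 3 probe sets of UBQLN1 passed in the fit over all probe sets. In that fit 1 probe set of RAD23B was called lower and 1 of VCP higher, though neither gene passed.

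The 8 genes that share only the symbol stem are no proteasome subunits. PSMG3-AS1, an RNA on the strand opposite to the assembly chaperone gene PSMG3, had 60.7 and 72.3 on the control arrays and 184.3 and 185.0 on the COUP-TFII siRNA arrays. It rose by 1.29 ± 0.15 on the log2 scale (limma adjusted p = 0.000281), the largest change of the 50 genes, and kept its call under each alternative tried. PSMG3 itself had 1357 and 1351 against 1313 and 1257 and did not pass (log2 fold change -0.07, limma adjusted p = 0.430).

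PSMC3IP, a protein of meiotic recombination, fell from 126.0 and 143.9 to 84.4 and 76.8 (log2 fold change -0.64 ± 0.15, limma adjusted p = 0.0136), but passed in no fit with 1 array left out (adjusted p = 0.0735 to 0.146). PSMA3-AS1 rose from 441.2 and 380.1 to 563.5 and 533.5 on its main probe set (log2 fold change 0.41 ± 0.09, limma adjusted p = 0.0116). That call was kept only without control replicate 1 among the omissions; leaving out control replicate 2 gave a limma adjusted p of 0.133, COUP-TFII siRNA replicate 1 of 0.135 and COUP-TFII siRNA replicate 2 of 0.0883, and averaging its 3 probe sets gave 0.09. PSMB8-AS1, PSMD14-DT, PSMD6-AS2, PSMD7-DT and PSME3IP1 did not pass.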

How the data were processed

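Values were the deposited intensities of 54675 probe sets on each of 4 arrays, on a linear scale; how the authors summarised and normalised these intensities is not given in the sources used here. Probe sets were named through the platform annotation, with symbols updated through RefSeq's gene table where it held them (41037 probe sets). The 62 control probe sets were left out. Array medians differed by less than 5%, so no rescaling was done. Each gene was represented by its probe set with the highest mean, with cross-hybridising sets (_x_at) used only where a gene had no other. Groups were compared on log2(intensity + 16) with limma 3.58.1 in R 4.3.3 (intensity trend, all 4 arrays, 8.78 degrees of freedom, two-sided) and all genes entered the Benjamini-Hochberg adjustment, with a threshold of 0.05. A second fit took every probe set as a row. The procedure was tested on simulated data. Their spread was drawn from the variances of this same fit, so that test cannot check the variance model behind the calls.

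The members and lists were chosen with earlier results of these data known. Named were all catalytic, immunoproteasome, activator and inhibitor genes; in each other subgroup up to 4 genes with the largest change among those that passed, or the 2 largest where none did; in the further lists up to 4 each that passed; and, apart, genes that share only the symbol stem. PSMA2, PSMA6, PSMA8, PSMG3 and NFE2L1 were named outside this rule. So were PSMD1 and PSMD12, each of which had another probe set that passed. Of 48 genes listed, 6 had no single-gene probe set (PSMA6, PSMB11, PSMC5, PSMD7, PSMD13 and PSME2). Alternatives were a replicate block, quantile normalisation, centring on housekeeping genes, pseudocounts of 1 and 64, dim genes left out, 1 prior variance, other choices of probe set, leaving out each array in turn and an adjusted p of 0.01. Centring on the median change of the housekeeping genes, which is their median deviation on each array, was chosen after seeing the data. Promoter sequences were RefSeq's on GRCh38.p14.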

Additional observations from a re-analysis of the deposited data

How the results depend on the processing

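With 2 arrays in a group, precision rests on their number, and dim members such as PSMA8 carry little signal over background. PSMB6, PSMB9, PSMC6 and PSMD2 passed in each fit with 1 array left out and at an adjusted p of 0.01. The lone array of a group was then assumed to vary like the other group. The pseudocounts of 1 and 64 and the use of cross-hybridising probe sets kept all medians and counts of calls near those reported. The 12 proteasome calls (1 higher, 11 lower) became 1 (0 higher, 1 lower) with 1 prior variance, 4 (3 lower) at an adjusted p of 0.01, 19 (2 higher, 17 lower) with dim genes left out, 7 (2 higher, 5 lower) with centring on the median change of housekeeping genes, and 4 to 8 (3 to 7 lower) with 1 array left out. Quantile normalisation called 2 higher. The 10 proteasome probe sets called by limma became 0 with 1 prior variance (9 at an unadjusted p under 0.05), 5 at 0.01, 25 with dim probe sets left out and 0 to 4 with 1 array left out; without either control array the count was 0 (14 and 10 unadjusted). The 4558 calls over all genes (2519 higher, 2039 lower) became 1568 (754 and 814) with 1 prior variance, 2768 (1450 and 1318) at 0.01, and 1824 to 2348 (882 to 1222 and 886 to 1370) with 1 array left out; averaging probe sets gave 1631 higher. The 17 calls in the other lists became 6 with 1 prior variance, 11 at 0.01, 8 with averaged probe sets and 9 to 12 with 1 array left out. Fewer arrays, or a stricter threshold, lower such counts by construction; the other causes were not tested.

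Same-numbered arrays did not deviate together (correlation of deviations 0.0165, over all genes), so replicate numbers were not taken to pair them. With the replicate block 17 proteasome genes were called, 2 higher and 15 lower, and PSMD5 and PSMD9 passed (limma adjusted p = 0.0367 and 0.0428).

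Leaving out 1 array moved the median log2 fold change of the 42 genes between -0.13 and -0.053, that of all genes between -0.0011 and 0.038, and the medians of core beta between -0.057 and 0.035, lid between -0.19 and -0.11 and assembly factors between -0.12 and -0.047. Quantile normalisation put core alpha at -0.042, core beta at 0.018 and activators at 0.12. Averaged probe sets put activators at -0.094, the inhibitor at -0.17 and PSMD11 at 0.032. With dim genes left out the median of all genes was 0.047.

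Centring on the median change of housekeeping genes gave medians of 0.069 for all genes, -0.052 for the 42 genes, -0.048 for core alpha, 0.042 for core beta, -0.12 for lid, 0.11 for activators, 0.041 for the inhibitor and -0.031 for assembly factors. The shift of that centring equalled the fall of GUSB alone. Centring on the middle housekeeping intensity is in effect centring on 1 gene: HPRT1, itself lower after COUP-TFII siRNA, held the middle on the control arrays and SDHA on the others. It called 9503 genes (8722 higher, 781 lower), 34 proteasome genes (32 higher, 2 lower), 53 proteasome probe sets and 30 genes of the other lists. Medians were then 0.37 for all genes, 0.25 for the 42 genes, 0.26 for core alpha, 0.35 for core beta, 0.077 for the immune subunits, 0.23 for base, 0.19 for lid, 0.42 for activators, 0.35 for the inhibitor and 0.27 for assembly factors. Any gene less than 0.36 below 0 turns under this shift by construction, which says nothing about that gene. Examples are PSMC2 at 0.16, PSMC3 at 0.069, PSMA7 at 0.17, PSMB1 at 0.19, PSMF1 at 0.35 and PSMD11 at 0.14. Further ones are PSMD14 at 0.18, PSMD3 at 0.18, PSMD9 at 0.19, PSMB8 at 0.16, PSMB10 at 0.077 and PSMD5 at 0.10.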
